A study of Mus musculus with 3 samples.

Results

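*Tnni2* and *Tnnt3* encode the inhibitory and the tropomyosin-binding subunits of troponin in fast-twitch fibers, and they lie beside the imprinted genes *H19* and *Igf2* on distal mouse chromosome 7. All H3K27ac peaks that overlap chr7:149600000-149850000 (mm9), the 250-kb interval that holds these 4 genes, were taken from the peak lists of 3 libraries of tibialis anterior (TA) muscle. There were 59 such peaks of 97857 in all. The list of 2 months (17884 peaks) gave 23, that of 10 months (35221) gave 19, and that of 20 months (44752) gave 17. The mice were C57/BL6, untreated as far as the labels say, and each age (2, 10, and 20 months) is 1 ChIP-seq library made with an antibody to H3K27ac (Abcam ab4729). The methods give the middle group as a range of ages that starts at 10 months, and how many animals went into a library is not given in the sources used here. The tissue label names TA muscle, whereas the extraction text of the labels speaks of activated SCs (satellite cells, the muscle stem cells) and of RNA. The tissue could not be checked against its marker genes, because the lists carry no gene names and no mm9 annotation was used here.

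Acetylation of histone H3 at lysine 27 marks promoters and enhancers in use. Fast troponin makes contraction of fast fibers depend on calcium: troponin T (*Tnnt3*) anchors the complex to tropomyosin, troponin I (*Tnni2*) blocks the binding of myosin until calcium is bound by troponin C, and the TA consists largely of fast fibers. *Igf2*, an insulin-like growth factor active in fetal growth, is expressed from the paternal copy, and *H19*, a long non-coding RNA, from the maternal copy. Both respond to enhancers downstream of *H19* under the control of a differentially methylated region between them, and both are strongly expressed in fetal tissues and in differentiating muscle cells. In a whole muscle, fewer cells of a type and less acetylation per cell cannot be told apart.

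The order of the genes was read from the RefSeq annotation of GRCm38.p6, a later build, so it gives neighbours and no positions for these peaks. From *Tnni2* to *Igf2* it lists 10 genes on chromosome 7. *Tnni2* is followed by *Lsp1*, which encodes an actin-binding protein of leukocytes, then by *Prr33*, *Tnnt3*, and *Mrpl23*, a protein of the mitochondrial ribosome. After these come the non-coding *Nctc1*, *H19* with the microRNA gene *Mir675* inside it, *Gm33148*, and *Igf2*. No peak was assigned to any of these genes, and peaks are named below by their position in mm9.

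The lists differ as a whole, and the difference bears on each value below. Each deposited peak carries a fold over background and a −log10 p, from which the whole number of reads stacked at its summit and the background in reads were solved. The lowest background of a list equals the mean read coverage of the genome, which was 1.26 reads in the youngest, 2.24 in the middle, and 2.50 in the oldest library. Summit reads divided by this mean are called summit coverage here. At 10 and 20 months, the background above this mean was in 100% of peaks a whole number of the library's reads in 10 kb (within 0.05 reads), so it is the mean coverage over the 10 kb around the summit. At 2 months this held for 3.38% of such peaks. There, 78.3% of all peaks had a background at the genome mean, against 2.87% and 4.89% at 10 and 20 months. With 1 library per age, this difference between the lists and age cannot be told apart, and no test of age was made. Intervals below are exact 95% intervals and cover counting error only, with neighbouring peaks counted as independent.

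The interval held fewer peaks at the later ages, but taller ones. With 19 peaks at 10 months and 17 at 20 months against 23 at 2 months, its number was 0.826 and 0.739 times that of 2 months, while the whole lists were 1.97 and 2.50 times as long. The exact Poisson intervals of the numbers, 14.6 to 34.5, 11.4 to 29.7, and 9.90 to 27.2 peaks, overlap. As a share of its list, the interval held 0.129% (exact binomial interval 0.0815 to 0.193%) at 2 months. The share was 0.0539% (0.0325 to 0.0842%) at 10 months, which still meets the first interval, and 0.0380% (0.0221 to 0.0608%) at 20 months, which does not. The order of the numbers turned when low or narrow peaks were left out: keeping the 50% of smallest q in each list gave 7, 7, and 11 peaks, and a minimum width of 222 bp gave 11, 19, and 15. The peaks covered 6566 bp at 2 months, 8478 bp at 10 months, and 8208 bp at 20 months. They were wider at the later ages, with a mean of 285, 446, and 483 bp, against 337, 493, and 435 bp in the whole lists.

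Summit coverage ranged from 6.34 to 15.9 times the genome mean at 2 months, with a median of 9.52, which is 8 to 20 reads. At 10 months it ranged from 11.1 to 38.4 with a median of 25.0 (25 to 86 reads), and at 20 months from 7.99 to 37.5 with a median of 25.2 (20 to 94 reads). The medians of the whole lists were 11.1, 15.6, and 14.0. The share of the list below the median summit of the interval was therefore 23.9% at 2 months, and 83.1% and 85.2% at 10 and 20 months. At 2 months 63.5% of the list stood above that summit, and the rest tied with it at 12 reads. A summit has to be taller to be called where the background is higher. The median background of the interval's peaks was 8.51 and 7.97 times the genome mean at 10 and 20 months, against 3.20 and 2.94 in the whole lists. The fold that the authors' peak caller gave went the other way, with a median of 5.75 at 2 months and 2.86 and 3.20 at the later ages, where the summit is divided by a higher background.

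**Figure D1:**
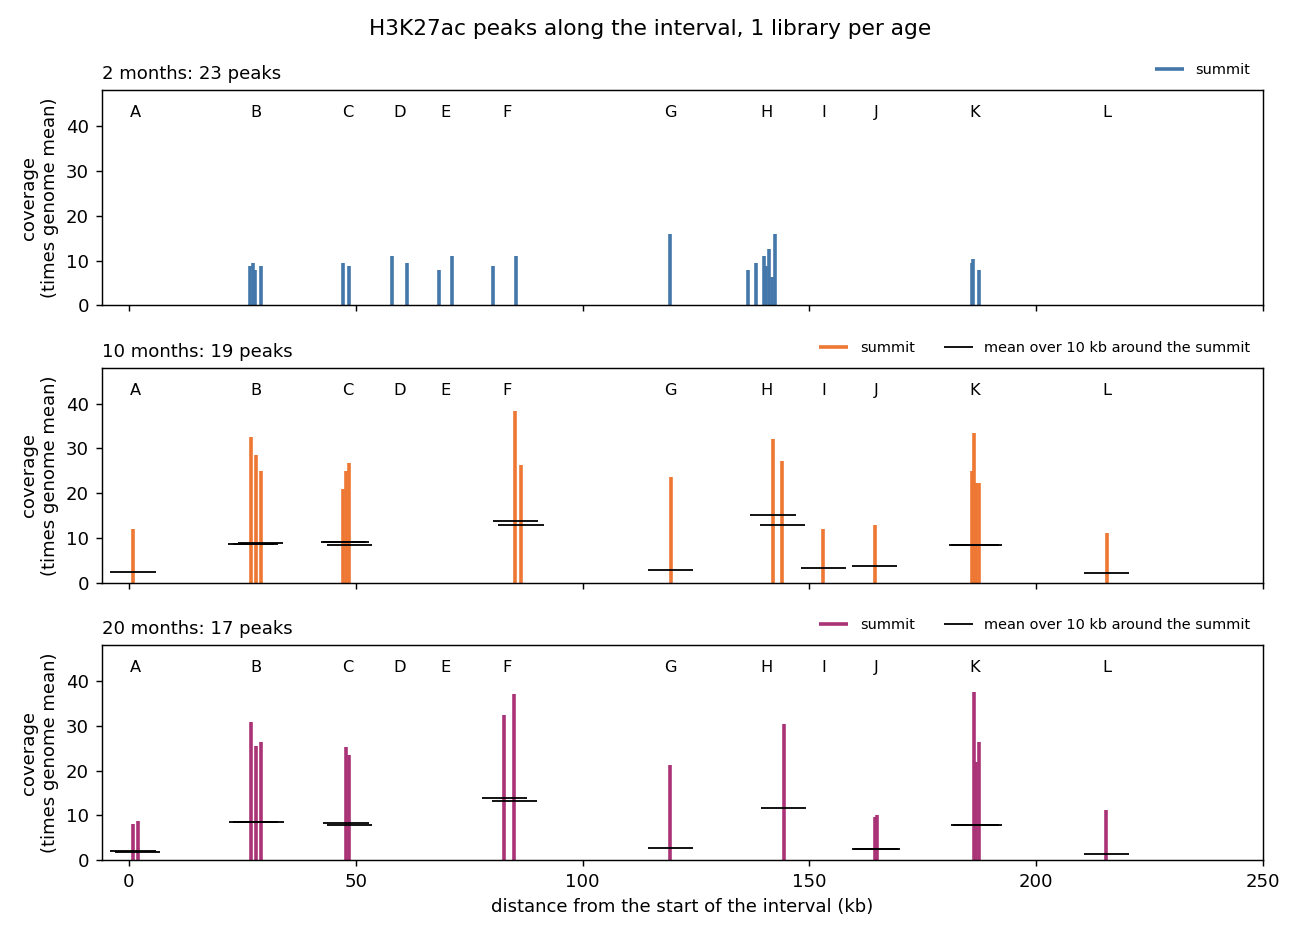
Summit coverage of every H3K27ac peak of the interval at 2, 10, and 20 months (vertical lines, times the genome mean of the library), against the distance of the summit from the start of the interval in kb. Black bars give the mean coverage over the 10 kb around the summit, which is known at 10 and 20 months, and letters name groups of peaks within 5 kb of each other. The 2-month summits stay at or below 15.9, while the later summits of groups B, C, F, H, and K lie between 21.0 and 38.4.

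Joining peaks of all ages that lie within 5 kb of each other gave 12 groups, named A to L along the interval. Groups B, C, F, G, H, and K held peaks at all 3 ages. B (chr7:149626720-149629411) held 4, 3, and 3 peaks in order of age, and its highest summit stood at 9.52, 32.6, and 30.8 times the genome mean. C (chr7:149647083-149649524) held 2, 3, and 2 peaks, with highest summits of 9.52, 26.8, and 25.2. F (chr7:149680241-149686593) held 2 peaks at each age, with highest summits of 11.1, 38.4, and 37.1. H (chr7:149736472-149744449) held 7, 2, and 1 peaks, with highest summits of 15.9, 32.1, and 30.4. K (chr7:149785248-149787521) held 3, 4, and 3 peaks, with highest summits of 10.3, 33.4, and 37.5. In each of these 5 groups the 10- and 20-month summits were well above the highest 2-month summit, while those of 10 and 20 months lay close together. To be called in these groups, a later summit needed 15.6 to 25.9 times the mean. In each group that was above the highest 2-month summit, so any later peak in the lists was bound to be taller.

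G (chr7:149719133-149719759) was a single peak at every age, 32.5 kb from the nearest peak below it, with a summit coverage of 15.9, 23.6, and 21.2. It was level with the highest summit of H at 2 months, and at the later ages it was below the highest summits of B, C, F, H, and K. Its deposited folds of 9.29, 7.41, and 7.12 were the largest of the interval at each age.

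Groups D (chr7:149657786-149661554) and E (chr7:149668172-149671272) held 2 peaks each at 2 months and none later. Their highest 2-month summits had 14 reads each, 11.1 times the genome mean. The nearest peaks to D were 8.26 kb away at 10 months and 8.50 kb at 20 months, and those to E 13.6 and 11.3 kb. Coverage between peaks is not in the lists, so the level at D and E at the later ages is not known.

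Groups A, I, J, and L had no peak at 2 months, when the nearest peak was 10.2 kb (I) to 27.7 kb (L) away. A (chr7:149600745-149601989) held 1 and 2 peaks at 10 and 20 months with highest summits of 12.0 and 8.79. I (chr7:149752968-149753202) held 1 peak at 10 months, with a summit of 12.0. J (chr7:149764253-149764948) held 1 and 2 peaks with highest summits of 12.9 and 9.99. L (chr7:149815167-149815825) held 1 peak at each later age, at 11.1 and 11.2. These later-age summits were the lowest of the interval, below the list medians of 15.6 and 14.0. From the end of L no peak was called at any age over the remaining 34.2 kb of the interval.

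Peaks that touch across the lists were merged into regions, 30 in the interval of 52693 in the genome. A peak at all 3 ages was held by 8 of the 30 (26.7%, exact interval 12.3 to 45.9%), against 20.1% of all merged regions. Peaks at both 10 and 20 months but not at 2 months were held by 6 (20%, 7.71 to 38.6%), against 33.8% of all. A peak at 2 months alone was held by 10 (33.3%, 17.3 to 52.8%), against 8.13% of all, and here the interval of the share lies above the genome's share. These 10 all lay in groups D, E, F, and H, and the interval treats such neighbours as independent. At the later summits of F and H a call needed 20.8 to 25.9 times the genome mean. The height needed at the places of the 2-month peaks themselves is not in the lists. A further 2 regions had peaks at 2 and 10 months, 2 at 10 months alone, 2 at 20 months alone, and 0 at 2 and 20 months, which allows a share of up to 11.6% (the upper bound of the exact interval). Of the 20 regions with a 2-month peak, 10 had a later peak (50%, 27.2 to 72.8%), compared with 73.9% of 16418 in the genome. The exact interval of the share ends just below that of the genome, and it too treats neighbours as independent.

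The 8 regions with peaks at all 3 ages carry the comparison of levels. In B they were chr7:149626720-149627352 (B1), chr7:149627785-149628068 (B2), and chr7:149628335-149629411 (B3), in C chr7:149648419-149649524, in F chr7:149684811-149685606, in G the peak given above, and in K chr7:149785248-149786459 (K1) and chr7:149787218-149787521 (K2).

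B1 had 12, 73, and 77 summit reads at 2, 10, and 20 months, which is 9.52, 32.6, and 30.8 times the genome mean. B2 had 10, 64, and 64 reads (7.93, 28.5, and 25.6 times the mean). B3 had 11, 56, and 66 reads (8.72, 25.0, and 26.4). All 3 parts of group B thus stood between 7.93 and 9.52 times the mean at 2 months and between 25.0 and 32.6 at both later ages. C had 11, 60, and 59 reads (8.72, 26.8, and 23.6). F, with 14, 86, and 93 reads (11.1, 38.4, and 37.1), was the highest of the 8 regions at 10 months. K1 had 13, 75, and 94 reads (10.3, 33.4, and 37.5) and was level with F at 20 months, and K2 had 10, 50, and 66 reads (7.93, 22.3, and 26.4). G differed from these in shape, with 20, 53, and 53 reads (15.9, 23.6, and 21.2): it was the highest of the 8 at 2 months and the lowest at 20 months.

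Summit coverage was higher at 10 months than at 2 months in all 8 regions, and by at least 1.5-fold in 7 of them, against 73.8% of the 10596 regions of the genome with a peak at all ages. The same 7 were higher by at least 2-fold, against 47.1% of all. A summit in these 7 had to reach the smallest −log10 p of the 10-month list. That took 1.60 (K1) to 2.19 (B2) times the 2-month coverage, so the 1.5-fold call was fixed by the filter. At B2, F (2.17), and K2 (2.14) the 2-fold call was fixed as well. In G 0.506 times the 2-month coverage was enough. The ratios of 10 to 2 months were 3.42 (1.84 to 6.92) at B1, 3.60 (1.84 to 7.86) at B2, and 2.86 (1.48 to 6.06) at B3. They were 3.07 (1.60 to 6.47) at C, 3.45 (1.95 to 6.58) at F, 3.24 (1.79 to 6.37) at K1, and 2.81 (1.41 to 6.22) at K2. G had the lowest ratio, 1.49 (0.876 to 2.63), and its interval was the only one of the 8 to include 1. Intervals above 1 were found for 58.1% of all regions.

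The median ratio of the 8 regions was 3.16, against 1.95 over all regions, whose quartiles were 1.48 and 2.47, and 7 of the 8 lay above the upper quartile. The height that a 10-month call needed kept 7 of these ratios, all but that of G, at 1.60 or more. At B2, B3, F, and K2 it kept them at 1.99 or more, above the median of all regions. Summing the reads of the 8 regions gave 2.88 (2.32 to 3.60), which rests on the same filter. B1 to B3 are neighbours in B, as are K1 and K2 in K. The 8 regions are therefore not independent of each other, and the interval covers the counting of these reads alone. None of the 8 regions was lower by 1.5-fold, which the filter left possible at G alone, nor were more than 1.14% of all regions.

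At 20 months the picture against 2 months was much the same, from the same 2-month reads. The median ratio was 3.23, against 2.08 over all regions (quartiles 1.62 and 2.58), and the summed reads gave 2.85 (2.31 to 3.56). In 7 of the 8 regions the ratio was at least 1.5 (80.6% of all) and at least 2 (54.4% of all), with intervals above 1 (65.8% of all), and in none was it lower by 1.5-fold (0.878% of all). In those 7 a 20-month call took 1.51 (K1) to 2.07 (B2) times the 2-month coverage, against 0.453 in G. Only G could therefore have missed the 1.5-fold limit. At B2 and F (2.05) the 2-fold limit was fixed as well. K1 had the highest ratio, 3.64 (2.03 to 7.09), and G again the lowest, 1.33 (0.785 to 2.36). The other 6 lay between 2.70 at C and 3.35 at F. In RPM (reads scaled to the library's total, with no division by fragment length) every region of the genome had a higher ratio to 2 months, by 0.58 (10 months) and 0.27 (20 months) on the log2 scale. The medians of the 8 regions were then 4.73 and 3.88, against 2.92 and 2.50 over all, and G reached the 1.5-fold limit with 2.24 (1.31 to 3.95) and 1.61 (0.944 to 2.84).

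Regions with few reads at 2 months tended to have larger ratios across the genome, and 7 of the 8 regions had 14 or fewer. Across all regions the ratio and the 2-month reads it is computed from had a Spearman correlation of -0.379 for 10 and -0.342 for 20 months. Among the 5284 regions with 14 or fewer 2-month reads, a limit chosen after the values were seen, the median ratio was 2.20 at 10 months and 2.29 at 20 months. The 7 regions of the interval, with medians of 3.24 and 3.23, all stood above those, and 7 and 6 of them were above the upper quartiles of 2.75 and 2.81. The limit of 14 is also the 2-month count of F, the highest of the 7. Their 10-kb means at the later ages were 7.86 to 13.9, against list medians of 3.20 and 2.94. The regions were not matched for the height that a later call needs, so this comparison cannot separate low 2-month reads from that filter.

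**Figure D2:**
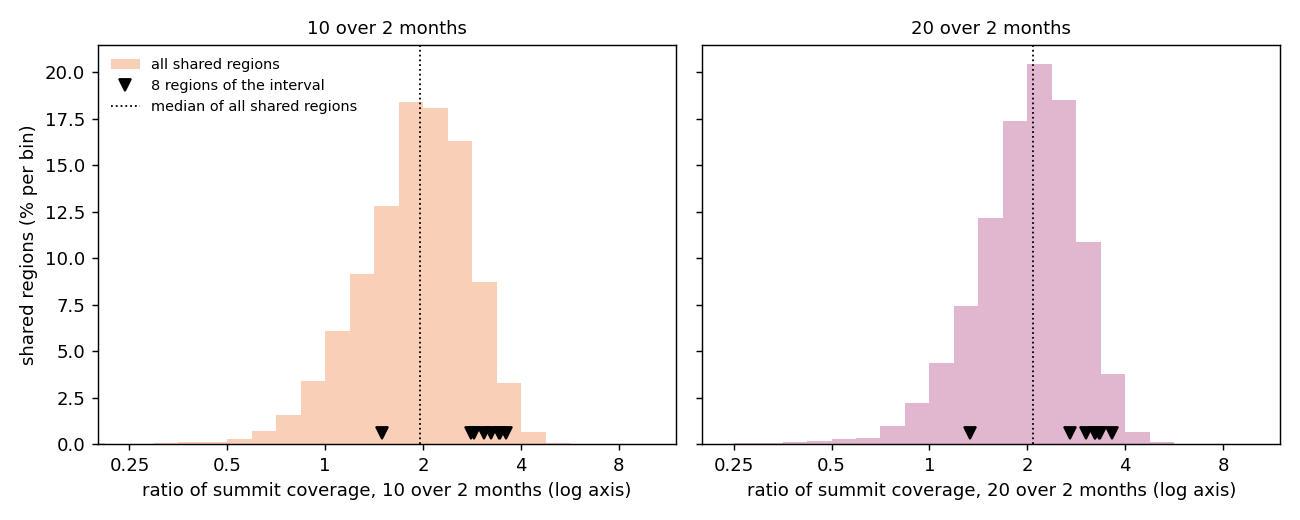
Ratio of summit coverage of 10 to 2 months (left) and of 20 to 2 months (right) on log axes, as the percentage of the 10596 regions with a peak at all ages in each bin. Triangles mark the 8 regions of the interval and the dotted line the median of all regions (1.95 and 2.08): 7 triangles lie between 2.70 and 3.64, and G lies apart at 1.49 and 1.33.

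Between 10 and 20 months no difference in summit coverage was detectable at this depth. The ratios of 20 to 10 months ran from 0.881 at C to 1.18 at K2, with a median of 0.957 against 1.06 over all regions (quartiles 0.943 and 1.20), and all 8 intervals included 1, as did 96.1% of all. The summed reads gave 0.991 (0.878 to 1.12). None of the 8 was 1.5-fold higher (3.43% of all) or lower (0.585% of all). In RPM the ratios were lower by 0.32 on the log2 scale at every region of the genome. Then all 8 lay below 1 instead of 5, so that no direction holds here.

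**Figure D3:**
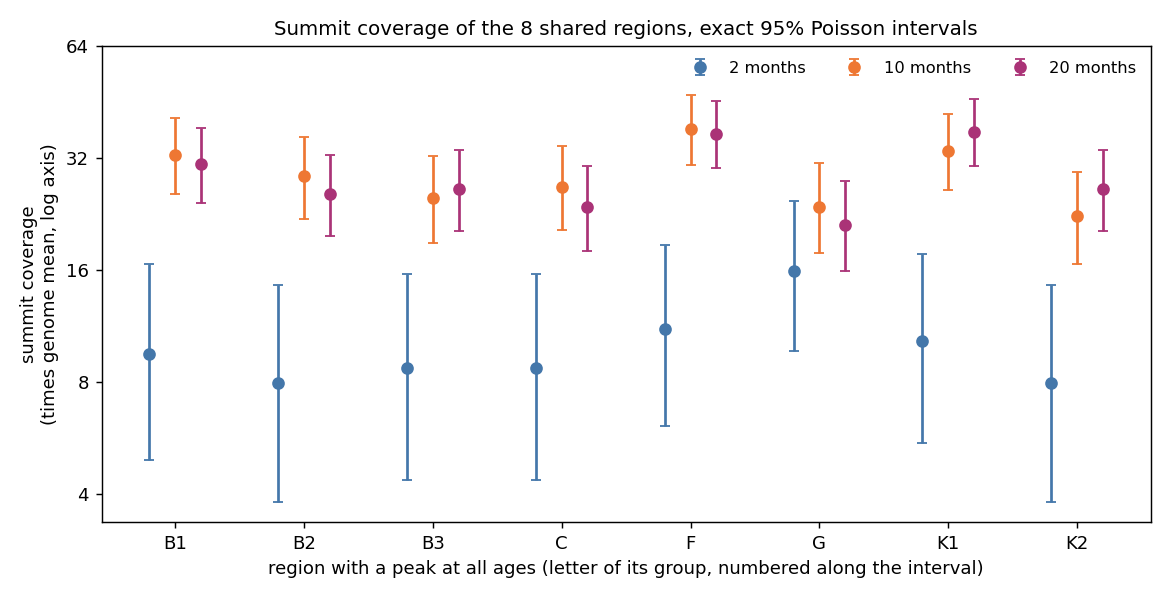
Summit coverage (times the genome mean, log axis) of the 8 regions that held a peak in every list, colored by age, with 1 library per age. Points are values and bars exact 95% Poisson intervals: the 2-month intervals lie below those of both later ages in 7 regions, and in G all 3 intervals overlap.

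Of the 6 regions called at both later ages and not at 2 months, the 3 highest lay in H, C, and K. In H, chr7:149743944-149744449 had 61 and 76 reads (27.2 and 30.4 times the genome mean). In C, chr7:149647486-149648024 had 56 and 63 reads (25.0 and 25.2), and in K, chr7:149786561-149786834 had 50 and 55 reads (22.3 and 22.0). Each of these 3 lay inside a group with other peaks at 2 months. The other 3, in A, J, and L, had 25 to 29 reads at 10 months and 20 to 28 at 20 months, and lay where no 2-month peak was within 20 kb. At the background of the genome mean, 7 reads (5.55 times the mean) reached the smallest −log10 p of the 2-month list (4.67). The 2-month level at these 6 places is not in the list.

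The 2 regions with peaks at 2 and 10 months were in C and H. In C, chr7:149647083-149647457 had 12 and 47 reads (9.52 and 21.0 times the mean), and in H, chr7:149741625-149742738 had 20 and 72 reads (15.9 and 32.1). Their ratios of 10 to 2 months were 2.20 (1.15 to 4.56) and 2.02 (1.22 to 3.51). A 10-month call there took 1.87 and 1.63 times the 2-month coverage. The regions called at a single later age were highest in F, though below the summits of 37.1 and 38.4 of the region there with peaks at all ages. They had 81 reads at chr7:149682536-149682819 at 20 months (32.4 times the mean) and 59 reads at chr7:149686318-149686593 at 10 months (26.3). The others, in A and I, had 22 reads at 20 months (8.79) and 27 reads at 10 months (12.0).

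The groups fell into 2 sets by the mean coverage of the 10 kb around their summits at the later ages, a split made after the values were seen. In B, C, F, H, and K, the 14 peaks at 10 months had 10-kb means of 8.43 to 15.2 times the genome mean, which is 852 to 1536 reads per 10 kb where the genome mean is 101. At 20 months their 11 peaks had means of 7.86 to 14.0, or 1105 to 1963 reads per 10 kb against 141. Such a mean includes the reads of the peaks themselves. Of all peaks in the list, 6.05% at 10 months and 5.97% at 20 months had a 10-kb mean at least as high as the lowest of these.

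F and H had the highest means. F stood at 13.0 to 13.9 times the genome mean at 10 months and at 13.1 to 14.0 at 20 months, and H at 12.9 to 15.2 and at 11.7. At 10 months 0.380% of all peaks reached the highest mean of the interval, and at 20 months 0.460%. B, C, and K were alike, at 8.43 to 9.21 and at 7.86 to 8.55. The 5 peaks of A, G, I, J, and L at 10 months had means of 2.17 to 3.70, and the 6 of A, G, J, and L at 20 months means of 1.46 to 2.63. The former lay on both sides of the list median of 3.20, and the latter all lay below that of 2.94. G therefore combined a summit of 23.6 and 21.2 with surroundings of 2.80 and 2.63 times the genome mean.

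**Figure D4:**
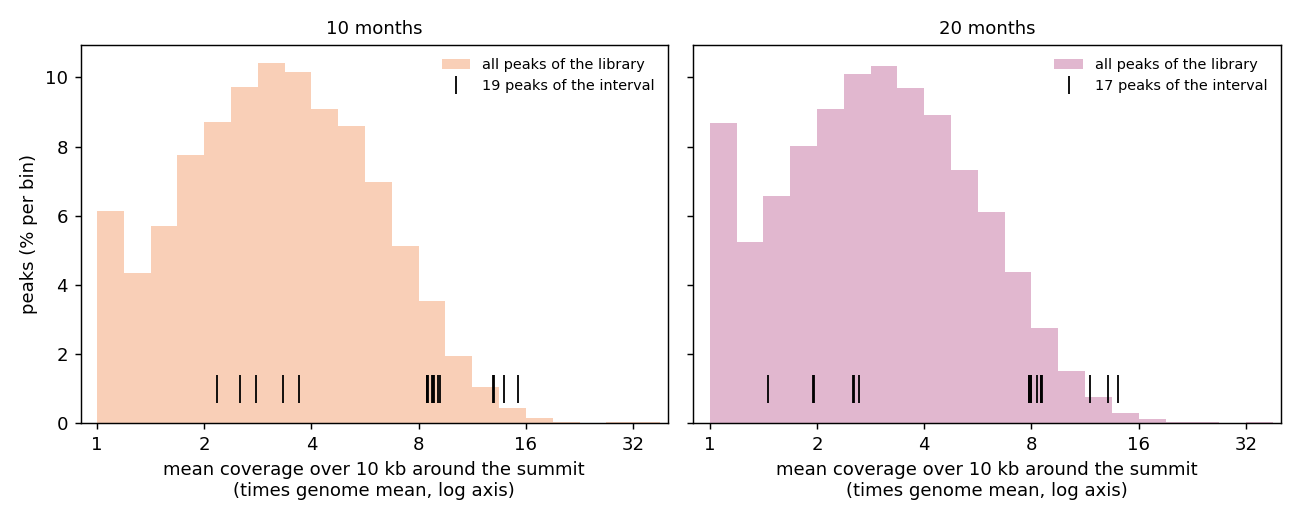
Mean coverage over the 10 kb around the summit (times the genome mean, log axis) of all peaks of the 10-month (left) and 20-month (right) lists, as the percentage of peaks in each bin. Ticks mark the 19 and 17 peaks of the interval: those of B, C, F, H, and K lie between 7.86 and 15.2 and those of A, G, I, J, and L between 1.46 and 3.70.

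The 10-kb means rest on more reads than the summits do, and they do not depend on fragment length. In the 14 regions of the interval with a peak at both later ages, the ratio of the 10-kb mean of 20 to 10 months ran from 0.672 to 0.973 with a median of 0.935, against 0.968 (quartiles 0.898 and 1.04) over 27573 regions. In 4 of the 14 the interval lay below 1, as in 18.9% of all regions, and in none above. These were L at 0.672 (0.553 to 0.817), J at 0.687 (0.593 to 0.797), A at 0.778 (0.653 to 0.926), and the region of H at 0.902 (0.839 to 0.971). F at 0.947 (0.883 to 1.02) and the 3 regions of B, at 0.970 to 0.973, differed by less than counting error. Windows within a group overlap and share reads. In J and H the compared summits were 499 and 280 bp apart.

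A peak is called against its background, so the reads a summit needed differed between the lists. At 10 months, 10 of the 23 peaks called at 2 months had no overlapping peak, and 5 of these, all in F and H, lay within 5 kb of a 10-month summit. The 10-kb mean at that summit was 13.9 to 15.2 times the genome mean, above the 2-month summit of all 5, which were between 8.72 and 12.7. A summit there needed 24.1 to 25.9 times the mean to reach the smallest −log10 p of the 10-month list (4.16). At 20 months, 13 had no overlapping peak and 7 of these lay within 5 kb of a 20-month summit, where 16.0 to 23.6 times the mean was needed. There the 10-kb mean was above the 2-month summit in 4 of 7 and the needed height in 7 of 7. The needed height was also above the 2-month summit at 12 of 13 and 9 of 10 of the 2-month peaks that did have an overlapping peak at 10 and 20 months. The 10-kb mean was above the 2-month summit at 6 of those 13 and 3 of those 10. A missing call where the needed height was above the 2-month summit is therefore no measurement of lower acetylation. The part of the background in the lower number of peaks was not tested.

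Among 250-kb windows tiled over the genome that held any peak, the interval ranked high at 2 months and less so later. At 2 months 42 of 4201 windows (1.00%) had at least 23 peaks, at 10 months 163 of 5806 (2.81%) had at least 19, and at 20 months 542 of 6155 (8.81%) had at least 17. By the highest 10-kb mean in the window it ranked higher, with 44 windows (0.758%) at 10 months and 60 (0.975%) at 20 months that reached it. The 250 kb below the interval held 5, 4, and 5 peaks in order of age, with highest summits of 19.03, 37.0, and 39.5 times the mean and 10-kb means of up to 7.56 and 7.63 at the later ages. The 250 kb above it held none at any age.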

How the data were processed

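H3K27ac ChIP-seq peak lists of 3 TA libraries, 1 per age, were analysed. Per the labels, the authors aligned reads to mm9 with Bowtie2 (version not given in the sources used here) and called peaks per library with MACS2 2.1.0. Whether a control library was used is not given there. The deposited values are a score (10 times the −log10 q, not used further), a ratio (fold of summit over background, each plus 1), a −log10 p with its −log10 q. The authors' software made all of these.

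The tools were scipy 1.17.1 and numpy 2.4.6 for the statistics, pandas 2.3.3 for the tables, and matplotlib 3.10.9 for the figures, under Python 3.11.15. The whole summit reads and the background that give fold and Poisson −log10 p together were solved (tolerance 0.001 in −log10 p). This was tested on simulated data. At 10 and at 20 months 1 peak outside the interval was not recovered. Fragment length was taken as the smallest peak width (148, 222, and 178 bp). Regions were peaks sharing at least 1 bp, and their level was the highest summit. A ratio was called higher or lower at 1.5-fold, with an exact conditional binomial 95% interval. The library totals of the study were used for RPM alone.

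With 1 library per age there were no tests and no replicates. The genes named are the 4 of the interval and those between them, as RefSeq lists them. The regions named are the 8 with peaks at all ages and the highest mean summit, any lower by 1.5-fold, and the 3 highest absent at 2 months and present at both later ages. Others were named after their values were seen. The interval, genes, and lists were chosen with earlier results of these data known. The comparison of 10-kb means, the groups of peaks within 5 kb, and the split by 2-month reads were added after seeing the data. The alternatives were other thresholds, list lengths, widths, overlap rules, scalings, and stitching distances. Sequence and gene distances were not analysed here, as no mm9 genome was used.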

Additional observations from a re-analysis of the deposited data

How the results depend on the processing

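Of 54 alternative values, 30 kept the reported value within its limits and 24 did not. Some of the 30 could not change. Lists of equal length leave the 2-month list, the shortest, as it is. With 0 regions higher by 1.5-fold from 10 to 20 months, none could be higher by 2-fold. The number of peaks at 2 months (23, against 19 and 17 later) was no longer the highest under 3 of the alternatives, and with lists of equal length 10 and 20 months changed places. With the 50% of each list of smallest q there were 7, 7, and 11 peaks at 2, 10, and 20 months, and with lists of equal length by q 7 at 10 and 9 at 20 months, so that the lower number at 20 than at 2 months (17 against 23) did not hold under the former. Merging peaks within 1 kb gave 15, 11, and 10. A minimum width of 222 bp left 11 at 2 months against 19 and 15 later, and a summit of at least 10 times the genome mean (chosen after seeing the data) left 8, fewer than the 19 and 13 left later. Regions with peaks at all ages, 8 of 30 as reported, numbered 5 of 19 with peaks extended by 500 bp. They numbered 2 of 16 with the 50% of smallest q and 5 of 23 with lists of equal length. The latter left 0 with peaks at 10 and 20 months. Regions of 2 months alone, 10 of 30 as reported, numbered 5 of 16 with the 50% of smallest q. In RPM the median ratios were 4.73 (10 to 2 months), 3.88 (20 to 2), and 0.767 (20 to 10), with shifts of 0.58, 0.27, and -0.32 on the log2 scale for every region. Divided by the median of all regions (chosen after seeing the data), the ratios to 2 months were 1.62 and 1.55. Counting covered base pairs, 1.90% of windows ranked at least as high at 2 months and 4.27% at 10 months, where equal lists gave 15.4%. Stitching peaks within 5 kb instead of the longer distance of the ROSE tool gave 8 instead of 5 clusters at 2 months. The cause was not tested for these. No paired analysis was possible because each age has 1 library. Depth limits the ratios to 2 months, whose summits rest on 8 to 20 reads.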

Other observations

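Peaks were also stitched at the distance that the ROSE tool uses for super-enhancers, which joins groups up to some kilobases apart. In order of age the interval held 5, 8, and 9 such clusters. The longest was chr7:149647086-149685606 at 2 months, which joined groups C to F over 38.5 kb with 8 peaks, and 1.86% of the 9000 clusters of that list had as many. H alone made a cluster of 7 peaks at 2 months (2.68% of clusters had as many). At 10 months the largest held 4 peaks, and at 20 months none held more than 3.

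In the 8 regions called in every list, the median distance between the highest summits of a pair of ages was 80.5 bp between 2 and 10 months, 91.5 bp between 2 and 20 months, and 45.5 bp between 10 and 20 months, against 93, 84, and 48 bp over all such regions. The summits were within 150 bp of each other in 6, 5, and 7 of the 8, against 64.0%, 65.9%, and 81.8% of all, and the longest distances were 362, 291, and 242 bp.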
